A study of Mus musculus with 14 samples.

Results

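The replication-dependent histone genes encode the core histones H2A, H2B, H3 and H4 and the linker histone H1, and most of them lie in clusters. They were taken here as every probe row of the expression table whose gene symbols all belong to the mouse families Hist1h, Hist2h, Hist3h or Hist4h. This rule gave 55 of the 28853 rows: 5 for H1, 5 for H2A, 18 for H2B, 13 for H3, 13 for H4 and 1 that names both an H1 and an H2B gene. Of these rows, 31 named 1 gene and 24 named several near-identical genes, and together they named 55 genes. A further 3 rows mixed such genes with other genes (Trim17, or the H2A variant H2ax) and were left out by the rule.

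The cells were fibroblasts cultured from mouse embryos (MEFs), infected on day 0 with retroviruses. One set received SKO, the 3 reprogramming factors Sox2, Klf4 and Oct4 (Oct4 is encoded by Pou5f1), and the control set received green fluorescent protein (GFP). From day 2 all cells, controls included, were in medium for embryonic stem cells with serum and the cytokine LIF, and in each set 1 culture received 50 µg/ml vitamin C while the other did not. The arms were thus GFP without vitamin C (day 3), GFP with vitamin C (day 3), SKO without vitamin C (days 3, 4, 5, 6, 8 and 10) and SKO with vitamin C (the same 6 days), with 1 array for each arm and day and 14 arrays in all. For the mouse strain and the virus promoter, the sources used here give nothing.

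Most histone mRNA is made in S phase, when new chromatin must be packaged. Most of these genes have no introns, and most of their mRNAs end in a stem-loop in place of a poly(A) tail, so that their level follows DNA synthesis closely. The stem-loop is bound by Slbp, and the genes are switched on through Npat, which is activated by cyclin E and Cdk2 as cells enter S phase. Some of these genes, among them Hist1h1c and Hist2h2be, are also known to give polyadenylated mRNA in cells that have left the cell cycle.

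The promoters of histone genes carry short shared elements, and 6 are shown for the members whose levels stand out in the results below. Each is the 150 bases before the gene start in the RefSeq promoter table (build GRCm38.p6), read 5′ to 3′ on the gene's own strand. Capitals mark the octamer ATTTGCAT (a sequence read by POU factors, the family of Pou2f1 and Pou5f1), the CCAAT box, the TATA box given as TATAAA and the H1 box given as AAACACA. A match on the opposite strand appears as its reverse complement, and no motif contains the letters of another.
Hist1h1b, chr13:21780626-21780775, minus strand: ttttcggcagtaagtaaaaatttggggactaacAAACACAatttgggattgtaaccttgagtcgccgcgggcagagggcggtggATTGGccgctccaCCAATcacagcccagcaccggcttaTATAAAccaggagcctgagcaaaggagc
Hist1h1a, chr13:23763518-23763667, plus strand: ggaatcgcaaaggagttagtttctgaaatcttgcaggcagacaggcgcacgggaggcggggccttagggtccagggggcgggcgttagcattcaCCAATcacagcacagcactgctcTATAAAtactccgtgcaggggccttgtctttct
Hist1h4f, chr13:23551669-23551818, minus strand: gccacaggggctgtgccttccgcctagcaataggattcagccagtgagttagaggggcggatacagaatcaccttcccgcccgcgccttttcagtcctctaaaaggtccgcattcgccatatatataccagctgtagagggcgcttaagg
Hist1h2ab, chr13:23750938-23751087, plus strand: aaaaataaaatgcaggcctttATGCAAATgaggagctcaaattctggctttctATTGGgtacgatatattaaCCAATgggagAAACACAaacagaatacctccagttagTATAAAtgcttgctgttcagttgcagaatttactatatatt
Hist1h2bp, chr13:21787338-21787487, plus strand: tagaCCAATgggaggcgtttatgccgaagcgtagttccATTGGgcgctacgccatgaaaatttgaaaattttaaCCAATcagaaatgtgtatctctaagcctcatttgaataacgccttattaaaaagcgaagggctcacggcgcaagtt
Hist1h2bg, chr13:23571250-23571399, plus strand: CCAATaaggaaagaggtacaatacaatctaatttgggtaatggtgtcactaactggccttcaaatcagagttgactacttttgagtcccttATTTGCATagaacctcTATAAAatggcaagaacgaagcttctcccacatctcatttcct

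The classes differed in these elements. Over the 250 bases before the start, on both strands, the octamer was in 14 of 63 histone promoters (22.2%) and in 1.6% of the 32851 promoters of the table. It was in 7 of 18 H2A and 7 of 17 H2B promoters and in 0 of the H1, H3 and H4 promoters. The CCAAT box was in 82.5% of histone promoters and 33.8% of all, with every H1, H2A and H2B promoter holding it and 3 of 12 H4 promoters. The TATA letters were in 46.0% against 12.4%, and the H1 box was in 5 of 6 H1 promoters against 6.25% of all. Several H2A and H2B genes stand head to head and share one promoter region, so their matches are not independent: the starts of Hist1h2ae and Hist1h2bg are 180 bases apart. In the printed windows Hist1h4f had no match to any of the 4 motifs, and Hist1h2bp had the CCAAT box alone. Of the 31 members with a row of their own, 26 had a promoter in the table.

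Values are log2 signals, so a difference of 1 is a doubling. The histone rows were bright: the median of their mean signals was 7.28, against 5.25 over all rows, and 43 of 55 lay above that all-row median. The brightest were 8 H3 rows that each name the same 12 H3 genes, with means between 10.92 and 10.99. Among the rows of several genes, next came 3 H4 rows that each name 11 H4 genes, probe set 10404067 at 10.05 and the identical pair 10403957 and 10408092 at 9.91. Then came 4 H2B rows of 14 or 15 genes with means from 9.37 to 9.54. The brightest row of a single gene was Hist1h1b (H1f5), a linker histone, at 9.87 on average, and the dimmest was Hist1h3f at 2.45. Of the members known from testis, Hist1h1t had signals between 2.90 and 4.50 on the 14 arrays, Hist1h2aa between 5.47 and 6.11 and Hist1h2ba between 5.00 and 5.72. A row's brightness also depends on its probes, so these signals do not rank the genes by mRNA amount.

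Rows of several genes share probe sequence with near-identical copies, and the genes behind them cannot be told apart. The 8 bright H3 rows followed one another with pairwise Pearson r from 0.984 to 1.0 over the 14 arrays, and the 4 bright H2B rows with r from 0.975 to 0.997. These rows are close to repeated readings of 1 H3 signal and 1 H2B signal. A pair of H2B rows (probe sets 10403959 and 10408087) and a pair of H4 rows (10403957 and 10408092) held identical values throughout and were the same measurement. The 31 rows of a single gene were far less alike, with a median pairwise r of 0.263 and a range from -0.701 to 0.916.

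The arrays matched their labels where this could be read. Pou5f1 was higher by 7.17 in SKO cells on day 3 (limma, adjusted p 7.12e-11), and the 12 fibroblast markers averaged between 9.98 and 10.67 on every array. One pattern cuts across the labels: a score over 500 rows of other genes, chosen for alternating between days 3, 4, 5 and 6 of the SKO cells, was between -0.568 and -0.449 on days 3, 5 and 10 and between 0.09 and 0.49 on days 4, 6 and 8. The split among days 3, 4, 5 and 6 follows from that choice, which did not use days 8 and 10 or the GFP arrays. Both GFP arrays (0.372 and 0.486) sat with days 4, 6 and 8. Untreated day 6 (0.128) and treated day 8 (0.09) were the lowest of that side. The arrays are 1 time course with no replicate of any arm and day, so the tests measure variation within this course and not between independent cultures.

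SKO and GFP cells of day 3 were compared first, to ask how the histone genes stood soon after the factors were delivered. Histone mRNA was higher in the SKO cells: 17 of 55 rows passed the test upward and 0 downward (limma over all 14 arrays, adjusted p under 0.05). Over all rows, 7.81% passed upward and 6.65% downward. With identical rows counted once, 16 were higher. In bulk RNA, more cells in S phase and more histone mRNA per cell cannot be told apart. The median difference of the histone rows was 0.49, against -0.03 for all rows. Of the 55 differences 51 were positive, against 13315 of all 28853 rows. The rows that rose were of H1, H2A, H3 and H4, with 3 of 5, 3 of 5, 5 of 13 and 6 of 13, while 0 of 18 H2B rows passed the test in either direction (6 at an unadjusted p under 0.05, as 7862 of all 28853 rows were, smallest adjusted p 0.0573). All 18 H2B differences were positive, with a median of 0.35. Whether H2B differed from the other classes was not tested.

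**Figure D1:**
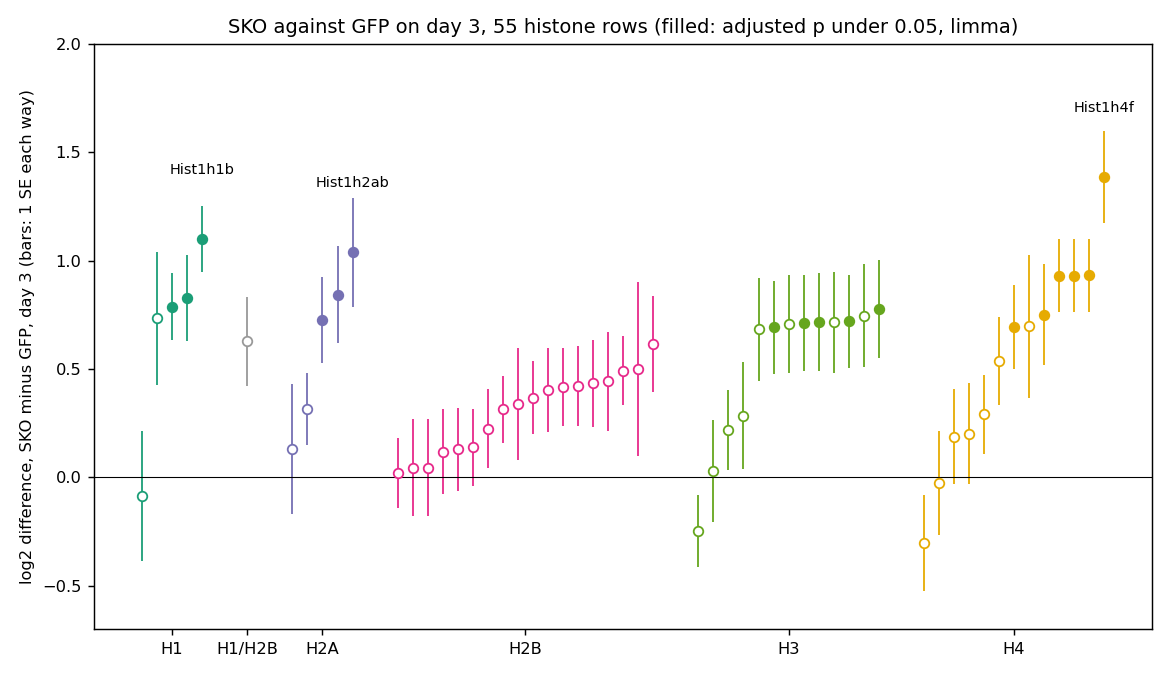
Each point is 1 of the 55 histone rows, grouped by class on the x axis, and the y axis gives the log2 difference of SKO minus GFP cells on day 3 with bars of 1 standard error each way. Filled points passed the test (adjusted p under 0.05, limma). Hist1h4f stands highest at 1.38, and 4 of 55 points lie below 0.

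Among the linker histones, Hist1h1b had signals of 8.91 and 9.07 in GFP cells without and with vitamin C, and of 10.07 and 10.11 in SKO cells of day 3. The GFP and SKO arrays did not overlap on any day, since the lowest SKO array was 9.70. The difference was 1.10 ± 0.15 (SE), or 2.14-fold, with an adjusted p of 0.000438. Hist1h1a, another linker histone, was at 7.32 and 7.62 in GFP cells and at 8.29 and 8.22 in SKO cells of day 3, a difference of 0.79 ± 0.16 (adjusted p 0.00448). Hist1h1d rose from 4.16 and 4.09 to 4.95 and 4.95, by 0.83 ± 0.20 (adjusted p 0.0136). The remaining linker histones did not pass the test. Hist1h1c was at 8.10 and 7.12 in GFP cells and 8.33 and 8.36 in SKO cells (0.73 ± 0.31, adjusted p 0.141), and its untreated GFP array lay close to the SKO arrays. It passed the test without either day 8 array (adjusted p 0.0497) and with the day 3 arrays alone (0.0301). The testis-specific Hist1h1t differed by -0.09 ± 0.30 (adjusted p 0.897), but with day 4 of the SKO cells it was higher by 1.17 (adjusted p 0.0362).

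Of the core histones, the H4 genes showed the largest single difference. Hist1h4f was at 5.92 and 6.88 in GFP cells and 7.54 and 8.03 in SKO cells of day 3, so the day 3 arrays did not overlap, although the GFP arrays differed by 0.96 from each other. The difference was 1.38 ± 0.21, or 2.61-fold (adjusted p 0.000914). On untreated day 6 the SKO level was 6.69, below the treated GFP array. The bright H4 rows were higher too: probe set 10404067 went from 9.17 and 9.62 to 10.19 and 10.47, a difference of 0.93 ± 0.17 (adjusted p 0.00264), with every SKO array above both GFP arrays. Hist1h4d (0.69 ± 0.19, adjusted p 0.0296) and Hist1h4h (0.75 ± 0.23, adjusted p 0.0475) also rose. Hist2h4, the brightest H4 row of a single gene, was at 9.01 and 9.23 in GFP cells and 8.63 and 9.01 in SKO cells, a difference of -0.30 ± 0.22 (adjusted p 0.426), and with day 4 of the SKO cells (9.44 and 9.56) the difference was 0.38 (adjusted p 0.474).

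The H2A genes with rows of their own gave 3 that rose. Hist1h2ab was at 4.38 and 4.98 in GFP cells and 5.67 and 5.78 in SKO cells, a difference of 1.04 ± 0.25 (adjusted p 0.0148). Hist1h2ak differed by 0.84 ± 0.22 (adjusted p 0.0236) and Hist1h2ae, which is very dim, by 0.73 ± 0.20 (adjusted p 0.0264). A brighter H2A row lies outside the rule because it also names H2ax among its 20 genes, and it was at 10.50 and 10.87 in GFP cells and 11.30 and 11.43 in SKO cells of day 3. Hist3h2a and the testis member Hist1h2aa had differences of 0.13 and 0.31 and did not pass the test, and with day 4 Hist3h2a had -0.37.

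The bright H3 signal was the average of 8 rows. It was 10.30 and 10.55 in GFP cells and 11.02 and 11.27 in SKO cells of day 3, and the day 3 arrays did not overlap. The 5 H3 rows that passed had differences from 0.69 to 0.78 with adjusted p between 0.0358 and 0.0497, close to the threshold. The 3 others of the 8 had differences from 0.68 to 0.72 and adjusted p from 0.0526 to 0.0733, so the count of H3 rows turns on small changes. Of the 5 that passed, all but probe set 10408202 missed the threshold without either SKO array of day 4, 5 or 10. On untreated day 6 (10.55) and treated day 8 (10.45) the SKO level was no higher than the treated GFP array.

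For H2B the bright signal of 4 rows was at 9.06 and 9.08 in GFP cells and at 9.46 and 9.53 on day 3 in SKO cells. It was above both GFP arrays on all 12 SKO arrays, the lowest being 9.27. Its rows differed by 0.40 to 0.43 with adjusted p from 0.153 to 0.203. The largest H2B difference was that of Hist1h2bm (0.61 ± 0.22, adjusted p 0.0842). Hist1h2bc stood out for its GFP arrays, which read 8.57 without and 7.40 with vitamin C, while its SKO arrays of day 3 read 8.34 and 8.32.

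Over all 12 SKO arrays, 13 of 55 histone rows had every SKO array above both GFP arrays, against 6.02% of all rows, and 41 had both day 3 SKO arrays above both GFP arrays, against 25.2% of all rows. The day 3 SKO arrays lie on the opposite side of the alternating score from the GFP arrays, and day 4 lies on the same side. With day 4 of the SKO cells in place of day 3, 29 histone rows were higher and 0 lower, with 3.77% of all rows higher and 2.13% lower, and the median difference was 0.75. Of the 31 rows of a single gene, 9 were higher with either day. Of the 24 rows of several genes, 20 were higher with day 4 and 8 with day 3, and many of these are near-repeated readings. By class, 4 of 5 H1, 1 of 5 H2A, 9 of 18 H2B, 10 of 13 H3 and 5 of 13 H4 rows were then higher, so H2B passed the test in that comparison. Hist1h2ae, Hist1h2ak and Hist1h4h did not pass with day 4 (adjusted p 0.618, 0.125 and 0.137).

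The counts rest on 4 arrays, and those below stand without the share of all rows called in the same fit. Without the untreated day 3 SKO array 5 rows were higher, without the treated one 6, without the treated GFP array 8 and without the untreated GFP array 11. Hist1h1b, Hist1h4f and the H4 rows of probe sets 10403957, 10408092 and 10404067 passed under each of these and under every other alternative run on all rows. Hist1h1a was lost without the untreated day 3 SKO array (adjusted p 0.0571). Hist1h1d and Hist1h2ak were lost without either day 3 SKO array or the treated GFP array, and Hist1h2ab and Hist1h2ae without either day 3 SKO array or the untreated GFP array. Hist1h4d was lost without any of the 4, and Hist1h4h also without either SKO array of day 5, 6 or 10. 

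Other genes of histone supply and DNA replication were taken from lists. The lists overlap: Mcm2 is both among the S phase genes and among the chaperones. Slbp is both among the S phase genes and in the list of histone mRNA processing. Of 25 measured S phase genes, 20 were higher in SKO cells of day 3 and 0 lower, with a median of 0.88. The largest was Rrm2, a subunit of ribonucleotide reductase, at 2.04 ± 0.20 (adjusted p 4.12e-05), followed by the DNA polymerase subunit Pola1 at 1.87 ± 0.18. Pcna, the sliding clamp of replication, was higher by 1.41 ± 0.16. Of 23 histone chaperones and modifiers of new histones, 11 were higher and 0 lower, with a median of 0.59. Hat1, which acetylates newly made H4, was higher by 1.62 ± 0.27 (adjusted p 0.00146), and Asf1b, a carrier of H3 and H4, by 1.22 ± 0.16 (adjusted p 0.000289).

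The machinery that makes and trims histone mRNA moved less uniformly. Of 26 genes, 6 were higher and 1 lower, with a median of 0.27. Ccne2, a cyclin E, was higher by 1.28 ± 0.20 (adjusted p 0.000975) and Eri1, the exonuclease that trims the histone mRNA end, by 0.999 ± 0.14 (adjusted p 0.00061). Slbp (0.39 ± 0.18, adjusted p 0.185) and Npat (-0.10 ± 0.17, adjusted p 0.762) did not pass the test. The one that was lower was Ctif, a factor for translating capped mRNA, at -0.88 ± 0.18 (adjusted p 0.00463).

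Replacement histones, many of which are also made outside S phase, split. Of 10 measured, 3 were higher: H2afz, the gene of the H2A.Z variant, by 1.55 ± 0.22 (adjusted p 0.000518), the centromeric Cenpa by 1.08 ± 0.18 and H2afv by 0.67 ± 0.18. The linker histone H1fx was lower, at -1.11 ± 0.19 (adjusted p 0.00191). H2afx (-0.05) and H3f3a (0.16) did not pass the test. Of 6 G1 arrest genes 3 were lower and 1 higher, with Cdkn1c, an inhibitor of cyclin-dependent kinases, at -1.79 ± 0.19 (adjusted p 7.23e-05). These counts are to be read against the 7.81% and 6.65% of all rows given above.

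Day 10 and day 3 of the SKO cells were compared next, to ask whether the histone level of the first days held. The day 3 SKO arrays stand in both this comparison and the one above. The histone rows were spread around 0: the median difference was -0.0065, against -0.02 for all rows, with 27 positive and 28 negative. Of the 55 rows 6 were higher and 0 lower (limma, 12 SKO arrays), with 5.36% of all rows higher and 4.34% lower, and counted once for identical values 5 were higher. The number called is small. Of the 6, 5 are H2B rows, and these include the identical pair. Over all 18 H2B rows, 7 differences were positive and 11 negative, with a median of -0.10. The 4 bright H2B rows differed by -0.14 to -0.21.

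**Figure D2:**
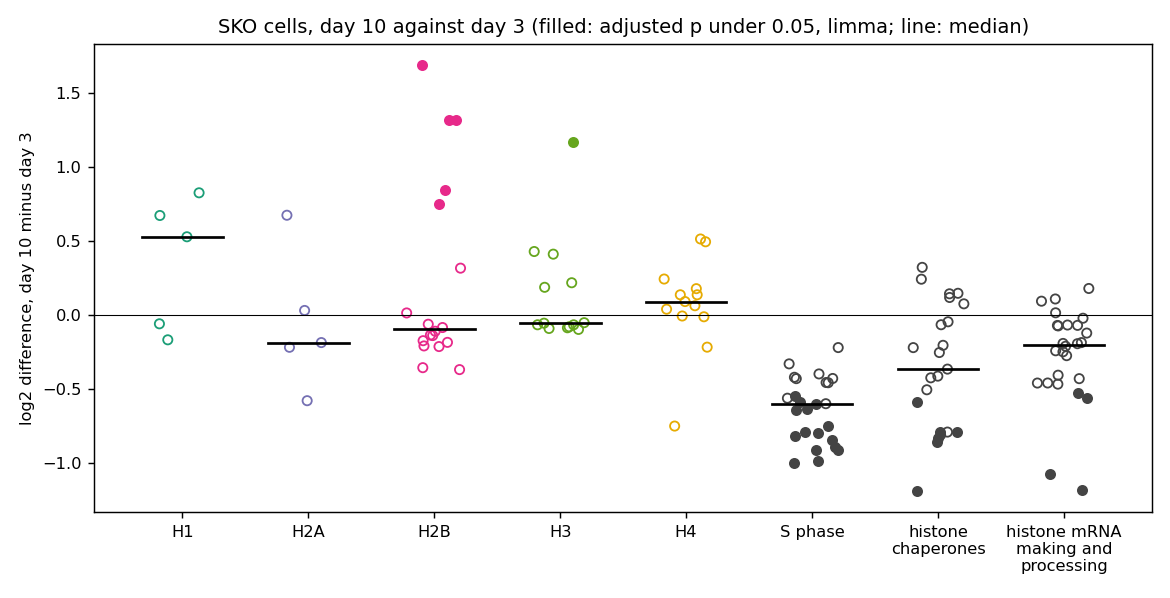
Each point is 1 histone row (5 classes, the H1/H2B row not shown) or 1 gene of 3 lists in SKO cells, with the log2 difference of day 10 minus day 3 on the y axis, filled where the adjusted p was under 0.05 (limma), and with the median of each group as a line. The S phase genes all lie below 0 around a median of -0.60, while the called H2B points lie between 0.75 and 1.68.

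Hist1h2bp, an H2B gene, rose most. Without vitamin C its signal was 5.15, 5.55, 6.09, 6.44, 6.32 and 7.06 on days 3, 4, 5, 6, 8 and 10, and with vitamin C it was 5.30, 5.85, 6.41, 6.63, 6.89 and 6.76. The level was higher on each later day than on day 3 in both arms, and the GFP arrays read 5.06 and 4.51. The difference of day 10 from day 3 was 1.68 ± 0.19, or 3.21-fold (adjusted p 0.000227). It passed the test with every single array left out, but from day 5 the difference was 0.66 (adjusted p 0.15).

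Hist2h2be, another H2B gene, was highest at the end. It was at 4.72, 4.66, 5.05, 4.95, 4.91 and 5.63 without vitamin C and at 4.97, 4.74, 4.94, 4.67, 5.23 and 5.74 with it. Both day 10 arrays were above all others, and the difference from day 3 was 0.84 ± 0.17 (adjusted p 0.00875). It missed the threshold from day 5 (0.69, adjusted p 0.0941) and without untreated day 3 (adjusted p 0.0884), untreated day 10 (0.0567) or treated day 10 (0.0738). Hist1h2bg followed another course, at 6.30, 6.97, 6.14, 5.78, 6.18 and 7.28 without and 6.48, 6.69, 6.24, 6.09, 6.14 and 6.999 with vitamin C. It had a first high on day 4, a low on day 6 and its highest values on day 10, which exceeded day 3 by 0.75 ± 0.18 (adjusted p 0.0198) and day 4 by 0.31 (adjusted p 0.302). The test against day 3 was missed without untreated day 3 (adjusted p 0.152), untreated day 10 (0.187) or treated day 3 (0.072). Hist1h2ae, whose start lies 180 bases from that of Hist1h2bg, did not share this course: its difference was -0.22 ± 0.19, and 0.24 from day 4 (adjusted p 0.473).

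**Figure D3:**
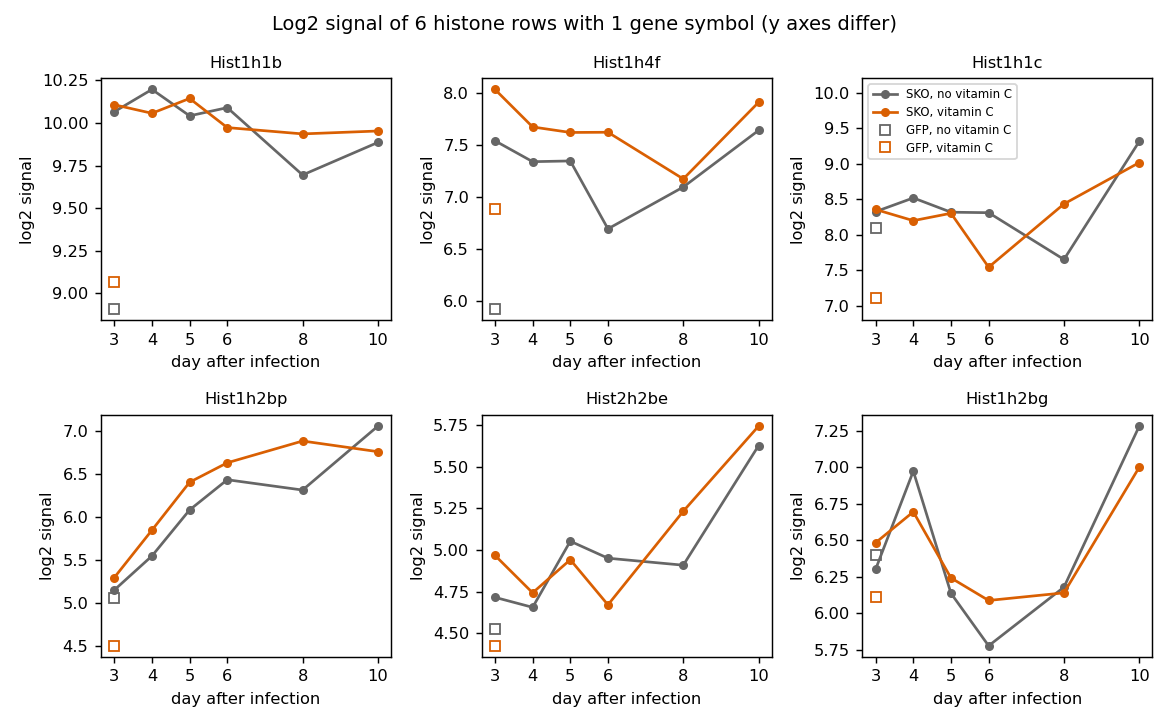
Log2 signal (y axis) of 6 histone rows of a single gene against the day after infection (x axis), with SKO cells as filled circles joined by lines and GFP cells as open squares, grey without and orange with vitamin C, 1 array a point. Hist1h2bp climbs from 5.15 and 5.30 on day 3 to 7.06 and 6.76 on day 10, whereas Hist1h1b lies above its GFP arrays on every day.

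The remaining called rows name several genes. The H2B row held by probe sets 10403959 and 10408087, of 15 genes, was at 6.13, 7.32, 6.49, 6.09, 6.01 and 7.84 without vitamin C and at 6.20, 7.17, 6.40, 5.87, 6.04 and 7.13 with it. Its shape was that of Hist1h2bg, high on days 4 and 10, but that gene is among the 15 it names. The difference of day 10 from day 3 was 1.32 ± 0.19 (adjusted p 0.00104). From day 4 it was 0.24 (adjusted p 0.468). An H3 row of 12 genes (probe set 10408246), much dimmer than the other H3 rows of these genes, was higher by 1.16 ± 0.25 (adjusted p 0.0128), while the bright H3 rows differed by -0.05 to -0.10. From day 4 the difference of this row was 0.46 (adjusted p 0.276) and from day 5 0.39 (adjusted p 0.64). It also missed the threshold without untreated day 3 (adjusted p 0.0523), treated day 3 (0.112) or treated day 10 (0.159, difference 0.78). Rows that carry the same gene names therefore behaved differently, and which gene each one reads cannot be told from the names.

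Several members outside the called set pointed up or down without passing. Hist1h1c was at 8.33 and 8.36 on day 3 and at 9.31 and 9.02 on day 10 (0.82 ± 0.28, adjusted p 0.0913), its highest day in both arms, and it passed without either day 8 array (adjusted p 0.0229). Hist1h1b, in contrast, was at 9.89 and 9.95 on day 10 (-0.17 ± 0.15), and Hist1h4f at 7.64 and 7.91 (-0.01 ± 0.19), and neither passed the test (adjusted p 0.592 and 0.983). The lowest differences were those of the H4 row of probe set 10408243 (-0.75 ± 0.34, adjusted p 0.222) and of Hist1h2ab (-0.58 ± 0.24, adjusted p 0.188).

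Of the 3 longest genes with rows of their own, 2 were among those called. By RefSeq the span of Hist1h2bp is 14079 bases and that of Hist2h2be 2667 bases, and besides them only Hist1h2bc (8282 bases) exceeds 903 bases among the 31 genes. Hist1h2bc did not share the rise: it differed by -0.13 ± 0.21 between day 10 and day 3, and by 0.26 between day 10 and day 4 (adjusted p 0.483). Hist1h2bg, which rose, spans 464 bases.

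Many genes of DNA replication were lower on day 10 than on day 3. Of 25 S phase genes, 0 were higher and 15 lower on day 10, with a median of -0.60: Rrm2 had -0.999 ± 0.19 (adjusted p 0.00632), and Pcna had -0.43 ± 0.17 (adjusted p 0.151). Of 23 chaperones 6 were lower and 0 higher, with Asf1b at -1.18 ± 0.16 (adjusted p 0.000703). In the processing list 4 of 26 were lower and 0 higher, Ccne1 (-1.18 ± 0.17) and Ccne2 (-1.07 ± 0.20) most, and Slbp had -0.43 ± 0.18 (adjusted p 0.194). Of 10 replacement histones 0 passed either way. The histone median of -0.0065 thus stood beside an S phase median of -0.60 on the same arrays, and the difference of these medians was not tested.

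Markers of other cell types also differed between those days. Of 12 macrophage markers 9 were higher on day 10 and 0 lower, and the mean of the list went from 4.50 and 4.63 on day 3 to 5.99 and 5.79 on day 10. Their part in the rise of the called H2B rows was not tested. Of 10 pluripotency genes 5 were higher, and the 6 germ line and testis markers had 0 called, with list means from 3.13 to 3.39 on all arrays. For fibroblast markers 2 were higher and 1 lower. Among the 6 G1 arrest genes 1 was higher and 1 lower on day 10, with a median of 0.13. The higher one was Cdkn1c, by 1.68 ± 0.14 (adjusted p 4.34e-05).

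Taking the whole course, 10 of 55 rows differed between any of the 6 days (limma F test). This share is near the 15.6% of all rows, so the count does not set the histone rows apart. Of the 10, 6 were Hist1h2bp, the pair of identical H2B rows, Hist1h2bg, Hist2h2be and an H2B row of 14 genes (probe set 10403948). The others were Hist1h1d, Hist1h1t, Hist1h4i and the dim H3 row. Hist1h1d, a linker histone, was highest on days 4 (5.51 and 5.595) and 10 (5.40 and 5.56) and lowest on day 8 without vitamin C (4.24) and on day 6 with it (4.18). Hist1h1t read 4.39 and 4.50 on day 4 and 4.41 on untreated day 10, and between 2.90 and 3.63 on the other SKO arrays. With day 4 as the base, 3 rows were higher on day 10 and 2 lower, with 6.56% and 6.0% of all rows. Days 4, 6 and 8 differ from days 3, 5 and 10 in the alternating score, and its part in these day differences was not tested.

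**Figure D4:**
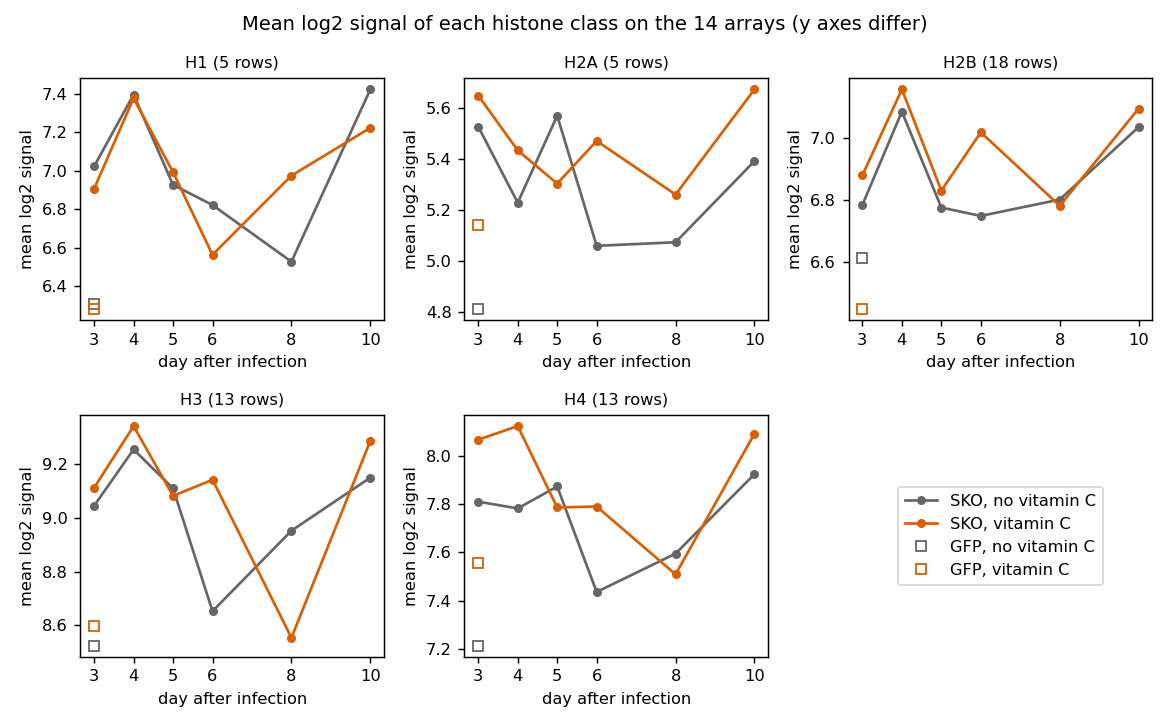
Mean log2 signal (y axis) of the rows of each histone class against the day after infection (x axis), with SKO cells as filled circles joined by lines and GFP cells as open squares, grey without and orange with vitamin C, 1 array a point. In every class the SKO arrays of day 3 lie above both GFP arrays, and in H3 the untreated array of day 6 (8.65) and the treated array of day 8 (8.55) drop toward the GFP level.

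Vitamin C, the treatment of the study, was compared within each day of the SKO cells. None of the 55 histone rows passed the test: 0 were higher and 0 lower (limma with the day as a factor), with 0.464% of all rows higher and 0.211% lower. At an unadjusted p under 0.05 there were 6 histone rows, and 3204 of the 28853 rows. The median histone difference was 0.14, against -0.0028 for all rows. Positive differences were found in 42 of 55 histone rows and in 14173 of the 28853 rows. Many of the histone rows are near-repeated readings, so the 42 are not as many separate genes. The number of pairs limits what could be seen, and a missed threshold does not show that the levels were equal.

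**Figure D5:**
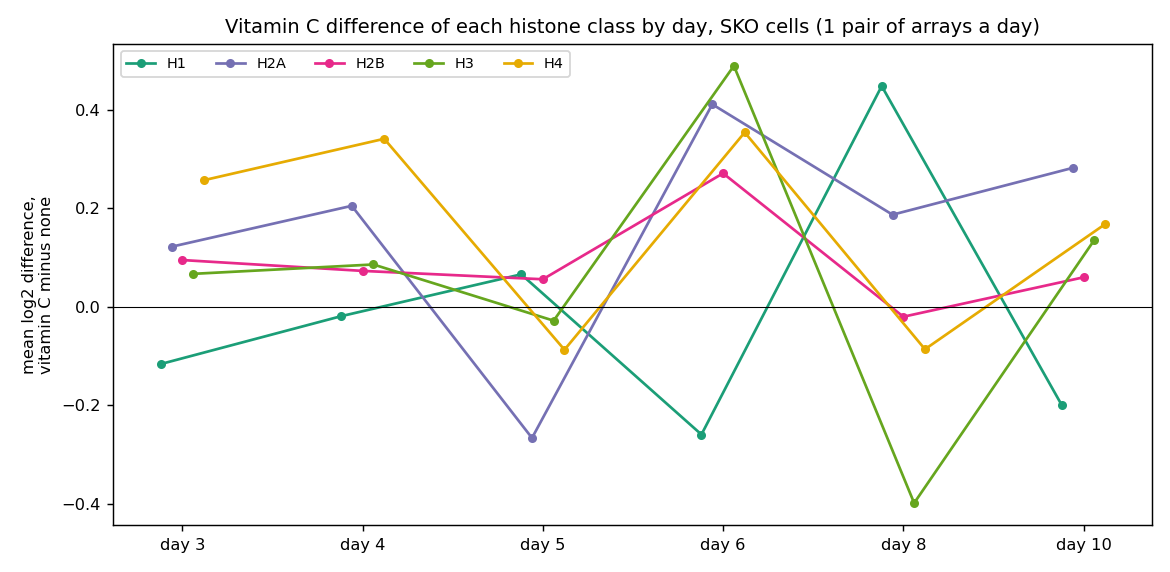
Mean log2 difference (y axis) of the rows of each histone class between SKO cells with and without vitamin C, for each of the 6 days (x axis), each from 1 pair of arrays. The differences spread widest on day 6 (up to 0.49 in H3 and down to -0.26 in H1) and on day 8 (0.45 in H1 and -0.40 in H3).

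Over the 6 days the mean of all histone rows differed by 0.12, 0.15, -0.02, 0.30, -0.06 and 0.10, and so changed sign between days. Among the class signals averaged here, the bright H3 signal had the widest spread, with 0.25, 0.20, 0.06, 0.72, -0.54 and 0.16. Its large values fall on days 6 and 8, where the alternating score of the paired arrays also differed (0.128 without and 0.472 with vitamin C on day 6, 0.49 and 0.09 on day 8). The part of that pattern in the vitamin C difference was not tested. The slope of the difference over the days gave 0 called histone rows, with 0.00347% of all rows called and 2 histone rows at an unadjusted p under 0.05, where 2124 of the 28853 rows stood.

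The largest single difference was that of Hist1h2ak, an H2A gene. Without vitamin C it was at 6.18, 6.13, 6.00, 5.49, 5.31 and 5.64 over the 6 days and with it at 6.54, 6.24, 6.15, 6.20, 5.79 and 6.71. The treated array was the higher one on all 6 days, by 0.48 ± 0.12 on average (adjusted p 0.142), and in GFP cells the arrays differed by 0.01. Hist1h4f was likewise higher on all 6 days, by 0.40 ± 0.11 (adjusted p 0.169), with a difference of 0.96 in GFP cells. The third such row was the H2B row of probe set 10403948 at 0.33 ± 0.09 (adjusted p 0.175), whose GFP difference was -0.32. How many of all rows were higher on all 6 days was not counted, so this pattern cannot be set against the whole table.

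No row was lower on all 6 days. The most negative differences were those of Hist1h3d (-0.28 ± 0.14, adjusted p 0.497) and Hist1h2bc (-0.28 ± 0.12, adjusted p 0.412). Hist1h2bc was lower with vitamin C on 5 of 6 days, and it had the largest GFP difference of these, -1.17, from a single pair. Hist1h1c, with -0.98 in the GFP pair, had -0.10 ± 0.16 in SKO cells and was higher with vitamin C on 2 of 6 days. Of the lists, S phase genes had 0 of 25 called for vitamin C (median 0.12), chaperones 0 of 23 and processing genes 0 of 26.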

How the data were processed

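Per the labels' protocols, total RNA was labelled by an Affymetrix whole-transcript assay. The authors deposited 1 log2 value per probe row and array. Per the submitters' processing notes they used RMA and Partek, with no version named there. The log2 scale was read from the values (0.72 to 14.09). RMA can understate differences of dim rows.

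The platform annotation gives newer symbols, so histone rows were found by matching its gene identifiers to the Hist symbols among the synonyms of the RefSeq gene table (GRCm38.p6). Of all rows, 21789 had 1 symbol, 1621 several and 5443 none. H3f3b, H1f0 and Cdkn1a had no row of their own and were not analysed here.

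Tests used limma 3.58.1 in R 4.3.3 on all 28853 rows, with Benjamini-Hochberg adjustment and a threshold of 0.05. Vitamin C and the days were fitted on 12 SKO arrays with a term for each day, which leaves 5 residual degrees of freedom, and SKO against GFP on all 14, which leaves 6. Fits were tested on simulated data. Named genes were those past the threshold, the extremes and brightest of each class, testis members and up to 4 of each list, with a few fixed genes. The members and lists were chosen with earlier results of these data known. The alternatives stand in the closing section; counting identical rows once was added after seeing the data. Figures were drawn with matplotlib 3.10.9.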

Additional observations from a re-analysis of the deposited data

Results flagged for a closer look

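The mean of the 13 H3 rows on the treated SKO array of day 8 was 8.553, and it lay far below the 5 other treated arrays, which were between 9.08 and 9.34. The 24 sets of 6 values examined for such a gap gave this one alone, and chance gives about 1 such set in 20. The untreated array of day 8 read 8.95, and the alternating score of the treated array was 0.09, against 0.49 for the untreated one.

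The H2B row of probe set 10403948 was higher with vitamin C on all 6 days of the SKO cells and lower with it in the GFP pair, by -0.323. The difference between the cell types was not tested, and the GFP value comes from 1 pair of arrays.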

How the results depend on the processing

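For SKO against GFP, 17 rows were higher, and 9 were among the 31 rows of a single gene (median 0.368, against 0.492). Day 4 in place of day 3 gave 29 (median 0.751), again with 9 among the rows of a single gene. Leaving out 1 array gave 5 (without untreated SKO day 3) to 23 rows (without either SKO day 8 array) and medians from 0.352 (without treated GFP) to 0.492. For day 10 against day 3, with 6 rows higher, the rows of a single gene gave 3, the base of day 4 gave 3 higher and 2 lower, and the base of day 5 gave 3 with a median of 0.132. From day 5, 207 of all 28853 rows were higher and 69 lower. The histone median of day 10 against day 3 was 0.037 after quantile normalization and -0.071 after median centring. Leaving out 1 array gave 3 (without untreated day 3) to 8 rows (without either day 8 array) and medians from -0.062 to 0.052. For any day, with 10 rows, an intensity trend gave 17, single-gene rows 6, days 3, 5 and 10 alone 6 and days 4, 6 and 8 alone 3. Leaving out 1 array gave 8 to 16 (16 without untreated day 8). The causes were not tested. The other alternatives kept these counts within 1.5 times. Vitamin C gave 0 histone rows under every alternative, and without the replicate block (the day) it also gave 0, with a median of 0.143. Among named rows short of the threshold, some changed sign. Against GFP with day 4, Hist1h1t had 1.169, Hist2h4 0.38 and Hist3h2a -0.373; leaving out 1 array gave -0.401 to 0.23 for Hist1h1t and -0.037 to 0.299 for Hist3h2a. From day 4 to day 10, Hist1h2ae had 0.24, Hist1h2bc 0.262 and Hist1h4f 0.269 (0.292 from day 5, 0.023 after quantile normalization); leaving out 1 array gave -0.486 to 0.052, -0.29 to 0.021 and -0.088 to 0.064 for them. For vitamin C, Hist1h1c had -0.274 to 0.035 with 1 array left out. No row past the threshold in the report changed sign. The counts with 1 array left out or with an intensity trend stand here without the share of all rows called in the same fit. The course has 1 array per arm and day, rows of several genes cannot be resolved, and GFP cells were measured on day 3 only, so later days have no control.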

Other observations

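Outside the histone genes, the rows of a single gene whose signals followed the mean of the 55 histone rows best were looked up among 11978 rows brighter than the middle of the table. Vps25 had a Pearson r of 0.87 over the 14 arrays, Gpd1l 0.861, Stard5 0.86, Slc20a2 0.838 and Syngr2 0.828. Arpin (0.825), Dusp1 (0.824), Hmgn3 (0.818), Mettl26 (0.812) and Cldn12 (0.811) came next. These values are the highest of many and all points share the arrays, the days and the 2 GFP cultures, so they describe this course only. None of the 10 is one of the 25 S phase genes. With 10 rows taken from 11978, this does not show whether the S phase genes followed the histone mean.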
